A study of Mus musculus with 6 samples.

Results

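The genes described here are the interferon response and MHC class I genes of mouse neural stem cells that had received a lentivirus with a short hairpin RNA (shRNA). They were chosen by symbol: genes for interferon receptors, JAK, STAT and SOCS proteins, interferon regulatory factors, sensors of foreign nucleic acid, antiviral effectors, guanylate-binding proteins and the H2 (mouse MHC) family. The choice applied no cut on a measured value, but it was made with earlier results of these data known. It matched 58 of the 12234 rows that name a single gene, and these rows cover 57 genes because Gbp7 stands in 2 rows. The 58 rows are all members, and no filter on level was applied here. The 12316 rows available all have the authors' test status OK, and 74 of 128 protein-coding names that the symbols match have no row.

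Interferons bind receptor chains that pass the signal through Janus kinases to STAT factors, and STAT and IRF factors then switch on genes that block viral entry, copying and translation. The same factors raise the genes of MHC class I, in which a heavy chain and the light chain beta-2-microglobulin carry peptides to the cell surface. Cells keep a basal level of this system without infection. In neural precursors, Jak1 and Stat3 also carry signals of the LIF and CNTF family, which are known to favour astrocyte formation.

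Poly(A) RNA was sequenced from neural stem cells of CD-1 mouse embryos at E14.5, bought commercially and grown on laminin with EGF and bFGF. There were 2 libraries with Sox4 shRNA 1, 2 with Sox4 shRNA 2 and 2 with a scrambled shRNA, and the libraries of each group carry passage numbers 1 and 2. Each of the 6 libraries came from cells that had received a lentivirus and had been kept under puromycin at 0.5 µg/mL, so both conditions carry a vector and the comparison does not set vector-carrying against untouched cells. The authors' deposited table gives 1 level per gene for a first and a second condition, with no name for either condition. The header states no unit, and the levels are taken as FPKM (fragments scaled to the length of the transcript and the size of the library), which Cuffdiff writes in such a table. Which hairpins each condition holds is not stated. Directions are therefore those of the second condition over the first, and no hairpin was assigned to a condition.

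Depth per library is unknown, there is no SD or n for any level, and the q-values of Cuffdiff measure the spread between libraries that may differ only by passage. Genes are "called" if marked significant by the authors, which they did at q-values up to 0.0494. A called gene "rose" where it was higher in the second condition and "fell" where it was lower there. Sox4, the gene the hairpins target, had 83.9 FPKM in the second condition and 127 FPKM in the first in the authors' deposited table, with a Cuffdiff q of 0.0543, so it was not called. Of 8 neural stem cell markers, 7 had a row, with summed levels of 3904 FPKM in the second condition and 6092 FPKM in the first. Fabp7 makes up most of these sums, with 2286 FPKM in the second condition and 4620 FPKM in the first, and it fell. Nes, the intermediate filament of neural precursors, rose, with 170 FPKM in the second condition and 98.1 FPKM in the first. The other 5 markers were not called, and 4 of the 7 had a positive fold. Sox2, a transcription factor of neural stem cells, had 51.1 FPKM in the second condition and 59.7 FPKM in the first. Of 10 leukocyte and microglia markers and 7 endothelial markers, 0 had a row among those analysed here. In bulk RNA, fewer cells of a type and less RNA per cell cannot be told apart.

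Tmem173, Ifitm2, Gbp9 and H2-Q10 rose in the second condition, and Ifitm3 and B2m fell. The other 52 of the 58 rows were not called. The 6 called rows are 10.3% of the members, against 5% of all single-gene rows. By direction, the 4 rises stand beside a background of 3.16% and the 2 falls beside one of 1.84%. An unadjusted p under 0.05 was found in 9 of the 58 rows, or 15.5%, against 17.5% of all single-gene rows. The median absolute log2 fold was 0.23 for the members and 0.22 for all single-gene rows. The median signed log2 fold was 0.10 for the members and 0.0032 for all rows, and 35 of the 58 members had a positive fold, or 60.3%, against 50.4% of all single-gene rows. Neither difference was tested. An absolute log2 fold under 0.5 was found in 45 of the 58 members and in 10127 of the 12234 single-gene rows.

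**Figure D1:**
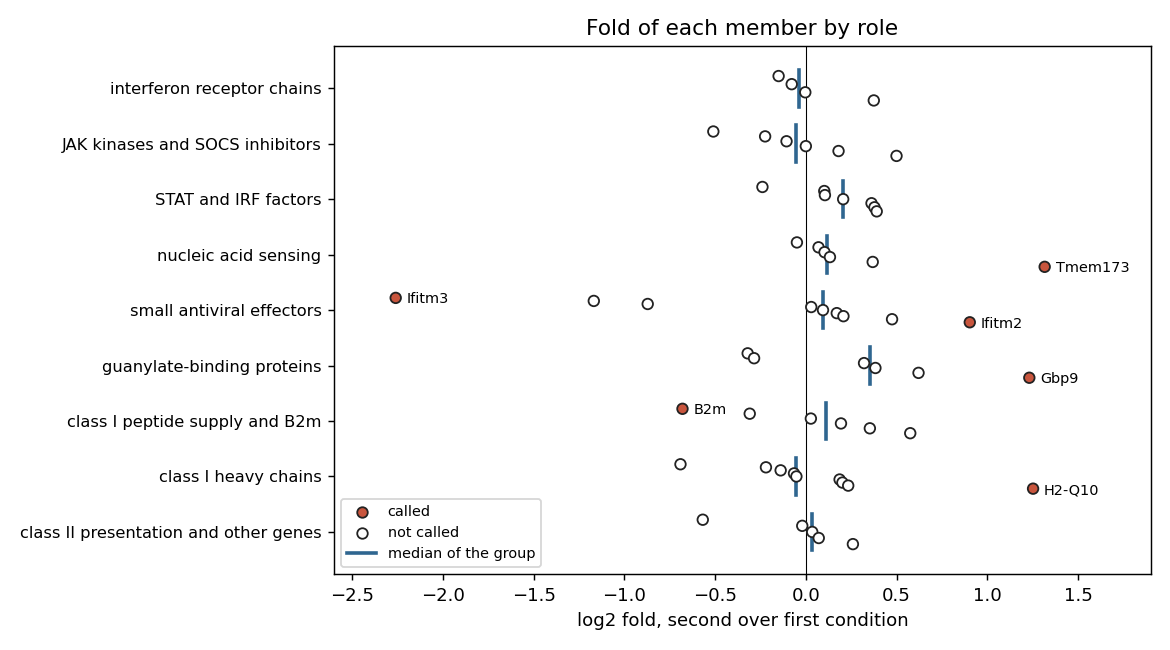
Log2 fold of the second over the first condition for each member row (horizontal axis), by role (vertical axis); filled points were called by the authors and the bar is the median of each role. The 6 called genes lie in 5 of the 9 roles, with rises and falls in the same role for the small effectors, and the receptor, JAK and SOCS, and STAT and IRF genes lie between -0.51 and 0.50.

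The promoters of called genes are shown because interferon acts on such genes through short DNA motifs close to the start site. Each is the 250 bases before the start of the RefSeq gene model on GRCm38.p6, 5′ to 3′ on the gene's strand. Capitals mark matches on either strand to the core of the interferon-stimulated response element (ISRE; GAAA, 2 bases of any kind, GAAA) or to TTCNNNGAA, the gamma-activated site bound by STAT dimers. B2m is from chr2:122147437-122147686 (plus strand), Ifitm2 from chr7:140955962-140956211 (minus strand), Ifitm3 from chr7:141010745-141010994 (minus strand) and H2-Q10 from chr17:35469839-35470088 (plus strand).
B2m: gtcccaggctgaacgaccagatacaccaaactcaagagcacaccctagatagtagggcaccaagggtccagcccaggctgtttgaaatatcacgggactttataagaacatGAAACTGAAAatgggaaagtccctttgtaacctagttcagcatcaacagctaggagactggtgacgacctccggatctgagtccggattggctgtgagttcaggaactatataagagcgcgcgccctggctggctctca
Ifitm2: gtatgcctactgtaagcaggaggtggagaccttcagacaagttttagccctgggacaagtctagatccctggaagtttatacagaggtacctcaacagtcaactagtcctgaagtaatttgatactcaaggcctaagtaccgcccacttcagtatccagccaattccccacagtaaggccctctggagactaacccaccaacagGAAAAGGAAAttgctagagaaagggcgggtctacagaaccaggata
Ifitm3: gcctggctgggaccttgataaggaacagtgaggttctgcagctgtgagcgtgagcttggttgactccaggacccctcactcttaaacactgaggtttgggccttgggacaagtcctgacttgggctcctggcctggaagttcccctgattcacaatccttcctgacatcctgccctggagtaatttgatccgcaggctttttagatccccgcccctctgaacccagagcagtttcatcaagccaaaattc
H2-Q10: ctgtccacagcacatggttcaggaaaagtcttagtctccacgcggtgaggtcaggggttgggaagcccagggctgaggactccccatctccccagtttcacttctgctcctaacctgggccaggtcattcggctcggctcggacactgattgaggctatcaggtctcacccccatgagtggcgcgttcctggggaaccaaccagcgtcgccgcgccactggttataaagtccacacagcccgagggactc
The B2m window holds GAAACTGAAA at 139 to 130 bases before the start, and the Ifitm2 window holds GAAAAGGAAA at 46 to 37 bases before it. The windows of Ifitm3 and H2-Q10 hold no exact match to either motif. Looser forms of the motifs were not searched, so these windows may hold one. Windows of Gbp9 and Tmem173 are not shown. Of the 2 called genes with an ISRE match, Ifitm2 rose and B2m fell.

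A gene was counted if any of its windows held the motif. Over the 44 member genes with a window, 13 held the ISRE core in the 250 bases, or 29.5%, against 2.72% of 9105 measured genes with a window. These members were chosen as interferon genes, so this share describes the list. Besides B2m and Ifitm2, the matches were in Bst2, Gbp2, Gbp3, Gbp5, Gbp7, H2-T23, Irf2, Isg15, Rsad2, Socs1 and Stat2. The 14 rows of these 13 genes had a median log2 fold of 0.10, and the 31 member rows with a window and no exact match also had 0.10. Any member with only a looser form of the core falls among those 31. The site TTCNNNGAA was found in 10 of the 44 member genes, or 22.7%, against 7.11% of the 9105 measured genes. The 11 rows of those 10 genes included 0 called genes and 0 with an unadjusted p under 0.05. Over all single-gene rows these shares were 5% and 17.5%, and a count of 0 in so few rows cannot be told apart from them. The log2 folds of the 11 rows ran from -0.32 to 0.50. A match of letters is not a bound site, and the data hold no measure of binding.

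Receptor chains had between 12.7 and 21.9 FPKM in both conditions, and 0 of 4 were called by Cuffdiff, against 5% of all single-gene rows. Ifnar1, a chain of the type I interferon receptor, had 21.9 FPKM in the second condition and 16.9 FPKM in the first in the authors' deposited table. That is a log2 fold of 0.37 with an unadjusted p of 0.0351 and a Cuffdiff q of 0.257. Its partner chain Ifnar2 had 14.6 FPKM in the second condition and 16.3 FPKM in the first in the authors' deposited table. The interferon gamma receptor chain Ifngr1 had 21.2 FPKM in both conditions, and Ifngr2 had 12.7 FPKM in the second and 13.4 FPKM in the first, in the authors' deposited table. Transcripts for both receptors were thus measured in both conditions. Ifnar2, Ifnar1 and Ifngr2 lie within 192841 bases of each other on chromosome 16 of GRCm38 (91372783 to 91565623), and their log2 folds have both signs.

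The kinases that bind these receptors differed little between conditions. Jak1 had 18.8 FPKM in both conditions in the authors' deposited table, with a log2 fold of -0.000055. Jak2 had 26.8 FPKM in the second condition and 28.8 FPKM in the first, and Tyk2 had 4.72 FPKM in the second and 4.17 FPKM in the first, in the authors' deposited table. SOCS proteins are feedback inhibitors of this signal and are themselves induced by STAT factors. Socs3 had 2.95 FPKM in the second condition and 2.08 FPKM in the first in the authors' deposited table, at a Cuffdiff q of 0.404. Socs1 had 0.625 FPKM in the second condition and 0.890 FPKM in the first, and Socs2 had 7.40 FPKM in the second and 8.65 FPKM in the first, in the authors' deposited table. The 6 kinase and SOCS rows held 0 called genes and 0 with an unadjusted p under 0.05. Over all single-gene rows the shares were 5% and 17.5%.

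Among the transcription factors, Stat3 was the most abundant, with 68.5 FPKM in the second condition and 59.4 FPKM in the first in the authors' deposited table. The mean of its levels was above that of 88.1% of single-gene rows, and its Cuffdiff q was 0.627. Stat2 and Irf9 belong to the complex that type I interferon activates, and both had low levels. Stat2 had 2.47 FPKM in the second condition and 2.29 FPKM in the first, and Irf9 had 1.99 FPKM in the second and 1.55 FPKM in the first, in the authors' deposited table. Irf1, an activator of interferon genes, had 5.04 FPKM in the second condition and 3.84 FPKM in the first in the authors' deposited table. Irf2, which can act as its antagonist, had 17.3 FPKM in the second condition and 16.1 FPKM in the first in the authors' deposited table. Irf3, which is activated downstream of nucleic acid sensors, had 10.8 FPKM in the second condition and 12.8 FPKM in the first in the authors' deposited table. Of the 7 rows of STAT and IRF factors 6 had a positive fold, 0 were called and 0 had an unadjusted p under 0.05. Over all single-gene rows the shares were 50.4%, 5% and 17.5%. The log2 folds of the 7 rows ran from -0.24 to 0.39.

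Among the genes of nucleic acid sensing, Tmem173 rose and the other 5 were not called. Tmem173 encodes STING, the adaptor of the endoplasmic reticulum that passes on the signal of cytosolic DNA. In the authors' deposited table it had 11.9 FPKM in the second condition and 4.76 FPKM in the first. This is a 2.49-fold difference (log2 fold 1.32) with a Cuffdiff q of 0.00304, which is the lowest q in the table and is shared by 230 rows. Of the 12234 single-gene rows, 228 had a larger absolute log2 fold. None of its transcripts' 50-base words occurs in transcripts of other genes in GENCODE M21, and its exons overlap no other gene there. The genes measured next to it were not called: Dnajc18 had 14.2 FPKM in the second condition and 14.0 FPKM in the first, and Ube2d2a had 72.8 FPKM in the second and 87.8 FPKM in the first, in the authors' deposited table.

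The other 5 genes of nucleic acid sensing had smaller folds than Tmem173. Mavs, the mitochondrial adaptor of RNA sensing, had 24.4 FPKM in the second condition and 23.2 FPKM in the first in the authors' deposited table. Ddx58, which encodes the RNA sensor RIG-I, had 2.21 FPKM in the second condition and 2.05 FPKM in the first in the authors' deposited table. Eif2ak2, which encodes the double-stranded RNA kinase PKR, had 10.2 FPKM in the second condition and 10.5 FPKM in the first in the authors' deposited table. Adar edits adenosine in double-stranded RNA, and had 12.9 FPKM in the second condition and 11.8 FPKM in the first in the authors' deposited table. Samhd1, which breaks down deoxynucleotides, had 15.6 FPKM in the second condition and 12.1 FPKM in the first in the authors' deposited table, at a Cuffdiff q of 0.324. The log2 folds of these 5 genes were between -0.05 and 0.37.

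The small effectors held both the largest fall of all members and a rise in a neighbouring gene. Ifitm3 and Ifitm2 encode small membrane proteins that hinder the entry of enveloped viruses. In the authors' deposited table Ifitm3 had 4.20 FPKM in the second condition and 20.1 FPKM in the first, a 4.79-fold lower level (log2 fold -2.26) with a Cuffdiff q of 0.00304. Of all single-gene rows, 31 had a larger absolute log2 fold. Ifitm2 went the other way, with 25.7 FPKM in the second condition and 13.8 FPKM in the first in the authors' deposited table, 1.87-fold higher (log2 fold 0.90) with a Cuffdiff q of 0.0322. Thus Ifitm2 was the more abundant of the pair in the second condition and Ifitm3 in the first. Both lie on the minus strand of chromosome 7 of GRCm38, Ifitm2 at 140954837 to 140955987 and Ifitm3 at 141009586 to 141010770, with 53598 bases between them. The measured genes on either side were not called. Athl1 had 9.22 FPKM in the second condition and 8.48 FPKM in the first, and B4galnt4 had 7.73 FPKM in the second and 6.15 FPKM in the first, in the authors' deposited table.

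The sequence of Ifitm2 is not its own throughout. Of the distinct 50-base words in its transcripts, 48.5% also occur in transcripts of other genes, most of them in Gm45717, whose exons overlap those of Ifitm2 on the same strand. For Ifitm3 the share is 10.02%. How the authors assigned reads that match several genes is not given in the sources used here, so the level of Ifitm2 is uncertain in that respect.

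**Figure D2:**
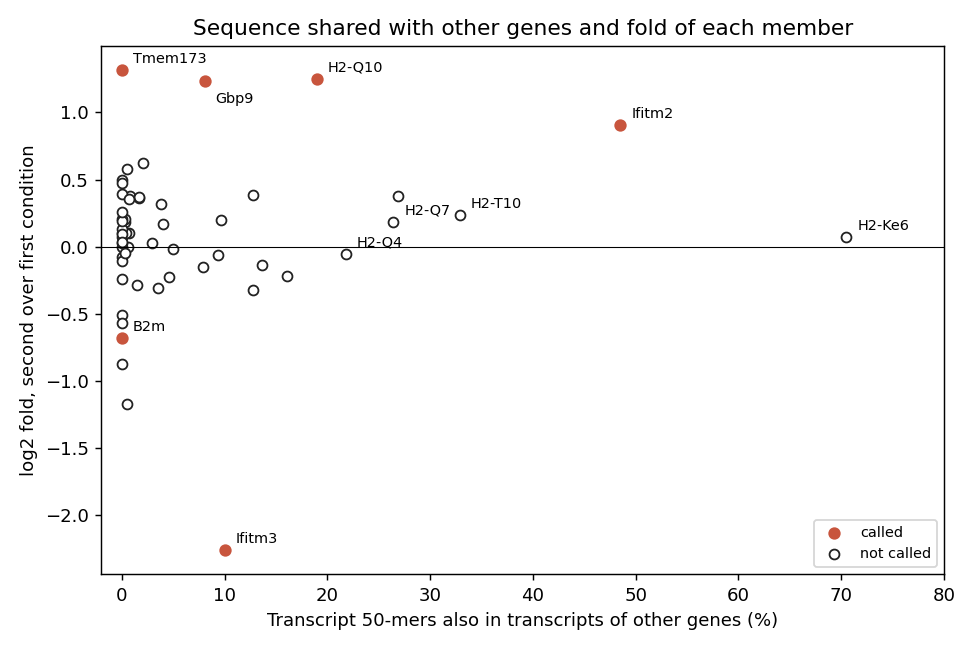
Share of each member's transcript 50-base words that also occur in transcripts of other genes (horizontal axis, percent) against its log2 fold of the second over the first condition (vertical axis). Tmem173 and B2m share 0% and Ifitm2 shares 48.5%; H2-Ke6 has the highest share, 70.5%, and lies near a fold of 0.

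The other effectors were not called. Ifi27, a small hydrophobic protein induced by interferon, came closest, with 7.90 FPKM in the second condition and 14.46 FPKM in the first in the authors' deposited table (log2 fold -0.87, Cuffdiff q of 0.0686). With q recomputed over rows of at least 1 FPKM it was 0.0588. Its neighbour Ifi27l2a, which lies with it in 9470 bases of chromosome 12, had 0.394 FPKM in the second condition and 0.886 FPKM in the first in the authors' deposited table. That log2 fold of -1.17 had a Cuffdiff q of 0.882. Ifit2, an interferon-induced protein with tetratricopeptide repeats, had 11.6 FPKM in the second condition and 11.4 FPKM in the first in the authors' deposited table. Isg15, a ubiquitin-like modifier, had 0.804 FPKM in the second condition and 0.714 FPKM in the first in the authors' deposited table. Rsad2 encodes viperin, which makes a chain-terminating nucleotide. It had 1.05 FPKM in the second condition and 0.757 FPKM in the first in the authors' deposited table. Bst2, the tether that holds budding virus at the cell surface, had 0.888 FPKM in the second condition and 0.832 FPKM in the first in the authors' deposited table. Ifi35 had 0.791 FPKM in the second condition and 0.685 FPKM in the first in the authors' deposited table. These 4 genes and Ifi27l2a were at 1.05 FPKM or less in both conditions. Further genes of the family that the choice of symbols would match, such as Ifit1, Ifit3, Irf7, Mx1, Oas2 and Nlrc5, have no row and are not analysed here. In GENCODE M21 the symbols match 128 protein-coding names, of which 74 have no row, 52 have a single-gene row and 2 stand only in rows naming several genes.

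Guanylate-binding proteins are GTPases that act against intracellular pathogens. Gbp9 rose: it had 2.35 FPKM in the second condition and 1.00 FPKM in the first in the authors' deposited table, 2.35-fold higher (log2 fold 1.23) with a Cuffdiff q of 0.0225. Gbp9 lies on chromosome 5 and its exons overlap those of Gbp4 and Gbp8 on the same strand. The share of its 50-base words found in other genes is 8.05%. The other 5 rows are genes within 144031 bases on chromosome 3 (142493978 to 142638008), and 0 of them were called by Cuffdiff or had an unadjusted p under 0.05. Over all single-gene rows, 5% were called and 17.5% had such a p. Gbp3 was the highest of the 5, with 19.2 FPKM in the second condition and 15.3 FPKM in the first in the authors' deposited table. The 2 rows of Gbp7 had folds of opposite sign: one had 6.33 FPKM in the second condition and 4.86 FPKM in the first, and the other 5.35 FPKM in the second and 6.68 FPKM in the first, in the authors' deposited table. Gbp5 had 5.203 FPKM in the second condition and 6.34 FPKM in the first, and Gbp2 had 0.643 FPKM in the second and 0.418 FPKM in the first, in the authors' deposited table. Whether Gbp9 differed from the genes on chromosome 3 was not tested.

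**Figure D3:**
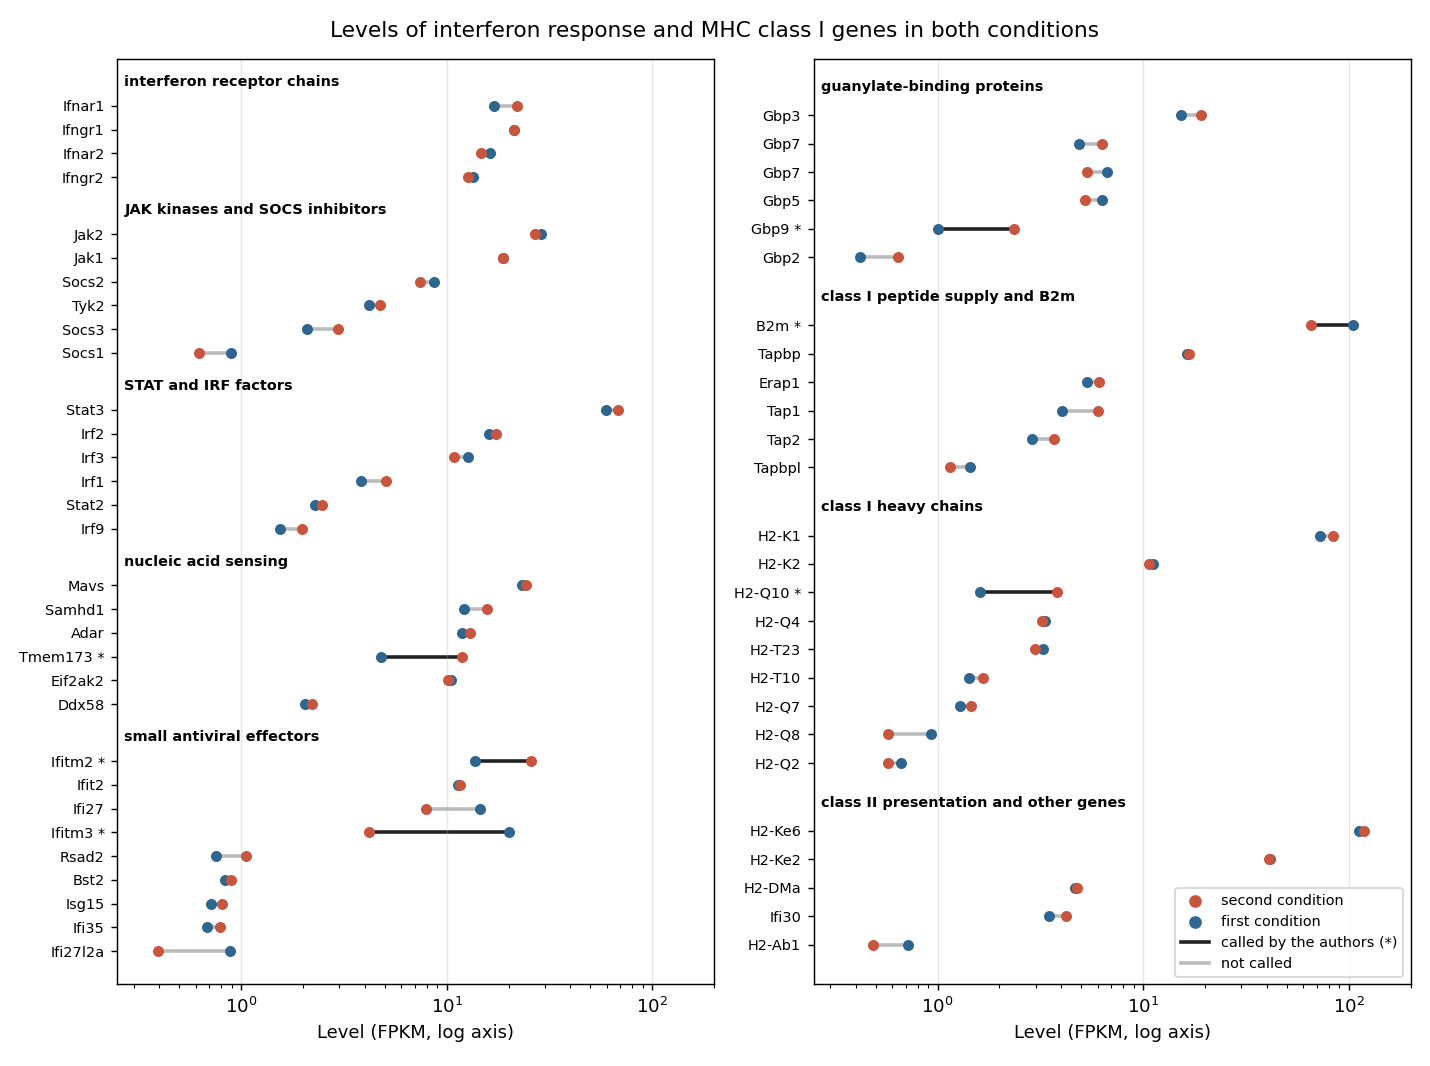
Levels of 57 of the 58 member rows in FPKM on a log axis, by role, with the second condition in red and the first in blue; dark lines and asterisks mark the 6 rows the authors called. B2m, H2-K1, Stat3 and H2-Ke6 stand highest, the small effectors other than Ifitm2, Ifitm3, Ifi27 and Ifit2 lie at 1.05 FPKM or less, and Ifitm3 has the widest gap.

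In the class I pathway, the light chain fell and the main heavy chain was not called. B2m, which encodes beta-2-microglobulin (chromosome 2, 122147686 to 122153083, plus strand), had 65.7 FPKM in the second condition and 105 FPKM in the first in the authors' deposited table. This is 1.60-fold lower (log2 fold -0.68) with a Cuffdiff q of 0.0211. Its 50-base words occur in no other gene and its exons overlap none. The mean of its levels was above that of 91.6% of single-gene rows. Spg11 and Sord, measured on either side of it, were not called, with log2 folds of 0.43 and -0.07. H2-K1, a classical heavy chain, had 83.9 FPKM in the second condition and 72.9 FPKM in the first in the authors' deposited table, with a log2 fold of 0.20 and a Cuffdiff q of 0.640. The row naming both H2-D1 and H2-L, which is not among the 58, had 20.7 FPKM in the second condition and 19.5 FPKM in the first in the authors' deposited table. The difference in fold between B2m and the heavy chains was not tested.

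Of the 5 genes that supply peptides to class I, 4 had a positive fold and 0 were called. Over all single-gene rows the shares were 50.4% and 5%. Tap1, a subunit of the peptide transporter of the endoplasmic reticulum, had 6.02 FPKM in the second condition and 4.04 FPKM in the first in the authors' deposited table. The log2 fold of 0.58 had an unadjusted p of 0.0184 and a Cuffdiff q of 0.180. The partner subunit Tap2 had 3.69 FPKM in the second condition and 2.89 FPKM in the first in the authors' deposited table. Tapbp, which encodes tapasin and bridges the transporter and the heavy chain, had 16.7 FPKM in the second condition and 16.4 FPKM in the first in the authors' deposited table. Erap1 trims peptides, and had 6.08 FPKM in the second condition and 5.32 FPKM in the first in the authors' deposited table. Tapbpl, a relative of tapasin that edits peptides, had 1.16 FPKM in the second condition and 1.43 FPKM in the first in the authors' deposited table. Exons of Tap1 overlap Psmb9 on the other strand, and whether strand was used in counting is not given in the sources used here.

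H2-Q10 was the called heavy chain. It encodes a secreted class I molecule known mainly from mouse liver. In the authors' deposited table it had 3.81 FPKM in the second condition and 1.60 FPKM in the first, 2.38-fold higher (log2 fold 1.25) with a Cuffdiff q of 0.0363. Of its 50-base words 19.0% occur in other genes, most often in H2-Q7. H2-Q7 itself had 1.46 FPKM in the second condition and 1.28 FPKM in the first, and H2-Q4 had 3.22 FPKM in the second and 3.34 FPKM in the first, in the authors' deposited table. The non-classical chain H2-T23, which encodes Qa-1, had 2.97 FPKM in the second condition and 3.27 FPKM in the first in the authors' deposited table. H2-K2 is annotated as a transcribed pseudogene, and had 10.6 FPKM in the second condition and 11.1 FPKM in the first in the authors' deposited table. H2-T10, H2-Q8 and H2-Q2 were below 2 FPKM in both conditions. Reads can be split between these related genes, and the share of 50-base words found elsewhere ran up to 32.9% in H2-T10. These shares are those of the reference assembly, and the H2 sequences of the CD-1 cells themselves are not known here. Together, the 15 rows of heavy chains, B2m and peptide supply had a median log2 fold of 0.03, with 1 rise and 1 fall.

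The remaining 5 rows, which are genes of class II presentation and genes named H2 by position, held 0 rows called by Cuffdiff and 0 with an unadjusted p under 0.05. Over all single-gene rows the shares were 5% and 17.5%. H2-Ab1, a class II chain of antigen-presenting cells, had 0.487 FPKM in the second condition and 0.721 FPKM in the first in the authors' deposited table. H2-DMa, which loads class II molecules, had 4.76 FPKM in the second condition and 4.64 FPKM in the first in the authors' deposited table. Ifi30, a thiol reductase of antigen processing, had 4.19 FPKM in the second condition and 3.50 FPKM in the first in the authors' deposited table. H2-Ke6 and H2-Ke2 carry the H2 prefix by position and encode a hydroxysteroid dehydrogenase and a prefoldin subunit. H2-Ke6 had 119 FPKM in the second condition and 113 FPKM in the first, and H2-Ke2 had 40.9 FPKM in the second and 41.5 FPKM in the first, in the authors' deposited table. Over the 15 members placed in the MHC region of chromosome 17 (33915899 to 36121465), 1 rose and 0 fell, and the median log2 fold was 0.04.

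**Figure D4:**
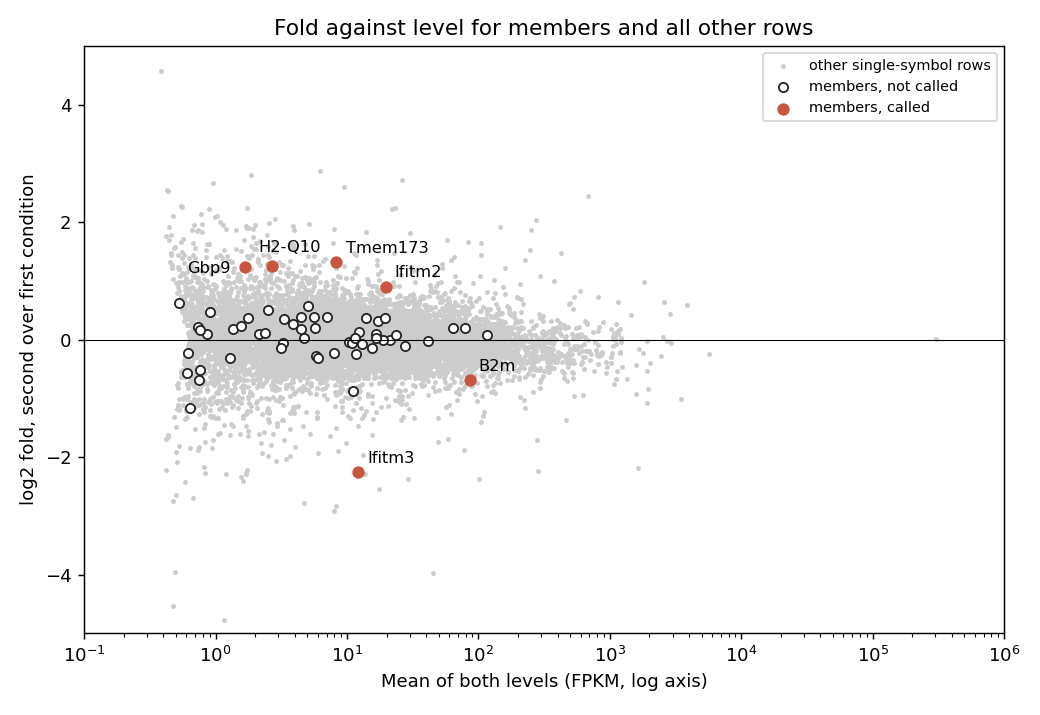
Log2 fold of the second over the first condition (vertical axis) against the mean of both levels in FPKM (horizontal log axis) for the 58 members and all other single-gene rows. Ifitm3 at -2.26 is the lowest and Tmem173 at 1.32 the highest of the members, and the members that were not called lie between -1.17 and 0.62.

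Partners outside the chosen symbols were counted from further lists. Of 13 measured genes for class I loading and proteasome partners, 1 rose and 0 fell. That is 7.69% called, against 5% of all single-gene rows in either direction. An unadjusted p under 0.05 was found in 1 of the 13, or 7.69%, against 17.5% of all single-gene rows. The rise was Lnpep, an aminopeptidase that can trim peptides for cross-presentation, with 24.4 FPKM in the second condition and 13.5 FPKM in the first in the authors' deposited table (Cuffdiff q of 0.00304). The chaperone Calr had 454 FPKM in the second condition and 374 FPKM in the first, and Canx had 342 FPKM in the second and 339 FPKM in the first, in the authors' deposited table. The immunoproteasome subunits Psmb8 and Psmb9, which interferon induces, were near 1 FPKM in both conditions. Other proteasome genes of this list were higher and were not called. Psmb10 had 9.47 FPKM in the second condition and 9.40 FPKM in the first in the authors' deposited table. Psme1 had 17.72 FPKM in the second condition and 21.04 FPKM in the first, and Psme2 had 35.4 FPKM in the second and 38.8 FPKM in the first.

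Of 19 measured genes of nucleic acid sensing outside the members, 1 rose and 0 fell, or 5.26% called, against 5% of all single-gene rows. The rise was Traf3, a ubiquitin ligase that links sensors to kinase signalling. It had 15.9 FPKM in the second condition and 10.2 FPKM in the first in the authors' deposited table (Cuffdiff q of 0.0248). An unadjusted p under 0.05 was found in 5 of the 19, or 26.3%, against 17.5% of all single-gene rows. Of these 5, Traf3, Myd88, Tlr3 and Zc3hav1 had log2 folds of 0.64, 0.63, 0.56 and 0.51, and Rnaseh2c had -0.48. The difference in share was not tested. Among the most abundant was Rnaseh2c, a subunit of ribonuclease H, with 40.9 FPKM in the second condition and 57.3 FPKM in the first in the authors' deposited table.

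Of 17 measured interferon-inducible genes outside the members, 1, Lgals3bp, rose and 0 fell. That is 5.88% called, against 5% of all single-gene rows. An unadjusted p under 0.05 was found in 3 of the 17, or 17.6%, against 17.5% of all single-gene rows. Lgals3bp, a secreted glycoprotein that binds galectins, had 3.74 FPKM in the second condition and 1.40 FPKM in the first in the authors' deposited table (log2 fold 1.41, Cuffdiff q of 0.00892). Trafd1 had 17.2 FPKM in the second condition and 18.9 FPKM in the first, and Irgm1 had 10.4 FPKM in the second and 13.7 FPKM in the first, in the authors' deposited table. These 17 genes had a median log2 fold of 0.18, against 0.0032 for all single-gene rows. Of 18 measured JAK-STAT partners, 0 were called by Cuffdiff, against 5% of all single-gene rows. An unadjusted p under 0.05 was found in 2 of the 18, or 11.1%, against 17.5% of all single-gene rows. Il6st, the shared receptor chain gp130 through which LIF and CNTF signal to Jak1 and Stat3, had 62.6 FPKM in the second condition and 43.0 FPKM in the first in the authors' deposited table (Cuffdiff q of 0.0566). Egfr had 135 FPKM in the second condition and 97.2 FPKM in the first, and Pias2 had 78.3 FPKM in the second and 92.6 FPKM in the first, in the authors' deposited table. The 18 partners had 9 positive and 9 negative folds, with a median log2 fold of -0.01.

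Markers of other cell types moved as well. Of 8 astrocyte markers 1 rose and 4 fell, or 62.5% called, against 5% of all single-gene rows. Levels summed over the 8 were 141 FPKM in the second condition and 251 FPKM in the first. Of 8 markers of mesenchymal cells, 2 had a row: Acta2 rose and Twist1 fell, and Col1a1, Col1a2 and Col3a1 have no row. Of 6 neuron markers 4 had a row, and 1, Elavl4, fell. The part of these markers in the changes of Ifitm3, B2m and the other called members was not tested. Across all single-gene rows with a known length, the longest 10% of transcripts, at 6847 nt or more, held 161 rises and 16 falls in 1216 rows. Of the 57 member rows with a length, 0 are in that range, and their median length was 2516 nt. The members that fell are short, with 678 nt for Ifitm3 and 860 nt for B2m. Among those that rose, Ifitm2 has 655 nt, H2-Q10 1991 nt, Tmem173 2299 nt and Gbp9 4381 nt. Rises and falls among short transcripts were not counted, and the part of length in these changes was not tested.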

How the data were processed

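Libraries of poly(A) RNA, 6 in all, were sequenced on the SOLiD system, to go by the kit in the labels' protocols. Cuffdiff, Cufflinks 2.2.1, TopHat2 2.0.9 and build mm10 are named in the submitters' processing notes. Annotation and strand setting are not given in the sources used. The authors deposited, per the file headers, 2 levels, a log2 fold, a test statistic (a score), a p-value and a q-value for each of 12316 gene rows with test status OK. The header states no unit for the levels. The deposited levels are taken as FPKM, since the layout is that of a Cuffdiff table. No value per library is given, so depth is unknown and no test was refitted.

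Computed here with Python 3.11.15, numpy 2.4.6 and pandas 2.3.3 were counts of the authors' calls, medians, recomputed Benjamini-Hochberg q-values, and, from GENCODE M21 on GRCm38 (the assembly called mm10), positions, exon overlaps and 50-base words shared with other genes. GENCODE holds 55 member symbols directly and H2-Ke2 as Pfdn6, and H2-Q8 was not placed. Promoter sequences are RefSeq's, on GRCm38.p6. Figures used matplotlib 3.10.9. The recomputed q and the shared words were tested on simulated data. Members, lists and alternatives were chosen with earlier results of these data known. Named genes are all called members, those with a q under 0.2, the most abundant and the extreme folds of each role, and of each further list the called genes and the 2 most abundant. Other members and genes next to called members were named outside this rule. So were, of the further lists, Il6st, Sox2, Myd88, Tlr3, Zc3hav1 and the proteasome genes. A member and a gene of a further list are counted but not reported here.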

Additional observations from a re-analysis of the deposited data

How the results depend on the processing

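By the authors' own q, 4 members rose and 2 fell. At a q of 0.01 these became 1 (Tmem173) and 1 (Ifitm3). Asking for a 2-fold difference left 1 fall, and with at least 5 FPKM in the higher condition the rises became 2, since Gbp9 and H2-Q10 are lower. Without members with exon overlaps or of families with similar copies, 1 rise (Tmem173) and 1 fall (B2m) were left. Recomputed q-values, at least 1 FPKM in both conditions, leaving out the longest 10% of transcripts and, chosen after the data were seen, leaving out members with 20% or more shared 50-base words kept both counts within 1.5 times. Leaving out the longest transcripts removed no member and tests nothing. Asking for at least 1 FPKM in both conditions could not change the counts either, since every called member meets it. Their lowest level was 1.00 FPKM, for Gbp9 in the first condition. The median log2 fold of the members stayed between 0.03 and 0.10 over 6 alternatives. Of 16 folds of 8 named members under a pseudocount of 1 or centring, 0 changed sign, which a pseudocount cannot do, and 1 (Gbp9, log2 fold 0.74 with the pseudocount) moved by over 1.5 times. No paired analysis was possible because passages have no values of their own. Leaving out single libraries was not run for that reason. What depth limits cannot be given without counts.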
